A study of Mus musculus with 15 samples.

Results

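The genes described here are 49 genes of DNA replication, nucleotide supply and entry into S phase, taken as a list of symbols and matched by symbol to Ensembl gene identifiers of a deposited count table. All 49 were among the 34259 genes of the table and among the 17497 genes with enough counts to be tested. By role they were 5 genes of origin licensing, 12 of the replicative helicase, 9 of the sliding clamp and of single-strand binding, 9 of the polymerases and of strand joining, 4 of nucleotide supply, 5 of the copying of chromatin and 5 E2F and cyclin E genes.

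RNA was sequenced in read pairs from 15 libraries of GL261, an established mouse glioma line whose genotype is labelled wild type, with 3 libraries in each of 5 groups, all at Day 6 and all under the same batch label. The non-SP group was left untreated; the name means that its cells lie outside the side population, that is, outside the cells that export the dye Hoechst. In the remaining 4 groups the cells are labelled Hoechst-CD133+ (CD133 is the protein of Prom1) and had a cytokine cocktail until Day 6. The labels do not name the cytokines. One of these groups had PBS and the cocktail, and those named D-gel@NP, D-gel@GSNP and L-gel@GSNP were first taken up in lyophilised hydrogels on ice for 20 min. Every group received new medium on days 2 and 4, and all cells were grown in DMEM with serum. The labels call the hydrogels chiral and mark them D or L; GSNP and NP are code names that the labels do not spell out. PBS against non-SP therefore changes the cell population and the cytokines together, and a hydrogel against PBS includes the step on ice. The labels do not say whether the 3 libraries of a group came from separate cultures, so the p-values measure only the spread between these libraries, which may be technical.

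Copying a genome begins with licensing: the origin recognition complex, Cdc6 and Cdt1 load the ring of MCM proteins onto DNA, and geminin (Gmnn) keeps Cdt1 from doing so again in the same cycle. At the start of S phase Cdc45 and the GINS complex join the ring to make the active helicase, primase and the polymerases copy both strands, the clamp Pcna holds the polymerases on DNA, and new nucleosomes and methyl groups are laid down behind the fork. Cyclin E with its kinase and the E2F transcription factors switch these genes on, and glioma lines in culture, which divide rapidly, express most of them.

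E2F proteins bind promoters through words rich in T followed by C and G, so the stretch before the start of each gene was searched for the 4 words TTTCCCGC, TTTCGCGC, TTTGCCGC and TTTGGCGC on both strands, with overlapping matches counted separately. RefSeq promoters of the mouse build GRCm38.p6, which is not the build of the counts (GRCm39), were matched by symbol to 39 of the 49 genes. They run from 250 bases before to 50 bases after a start, and several genes have more than 1 start. At least 1 word was found in 15 of 47 such promoters (31.9%), against 744 of 32851 promoters of all genes (2.26%). The CCAAT box, the word CCAAT on both strands, was present in 63.8% of the promoters of these genes and in 37.4% of all, and the cell cycle homology words TTTGAA or TTCGAA in 21.3% and 19.2%. A match is a description of the letters and not a site shown to be bound.

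The 250 bases before the start are shown for 6 genes that contrast in the results: Mcm5, Mcm6 and Orc1 have words and fell in PBS, Cdc6 and Mcm7 have words and were not called there, and E2f8 had the largest difference and has none of the words. Each runs 5′ to 3′ on the gene's strand, with the E2F words in capitals, and comes from RefSeq on GRCm38.p6: Mcm5 at chr8:75109259-75109508 (+ strand), Mcm6 at chr1:128359706-128359955 (- strand), Orc1 at chr4:108579204-108579453 (+ strand), Cdc6 at chr11:98907901-98908150 (+ strand), Mcm7 at chr5:138171884-138172133 (- strand) and E2f8 at chr7:48881597-48881846 (- strand). A second word of Mcm7 lies after its start and is not shown.
Mcm5: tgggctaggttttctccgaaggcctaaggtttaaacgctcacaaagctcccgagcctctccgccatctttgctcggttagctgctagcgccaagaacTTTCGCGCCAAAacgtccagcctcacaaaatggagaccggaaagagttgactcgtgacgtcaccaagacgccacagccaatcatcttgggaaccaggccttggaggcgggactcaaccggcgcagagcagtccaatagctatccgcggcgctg
Mcm6: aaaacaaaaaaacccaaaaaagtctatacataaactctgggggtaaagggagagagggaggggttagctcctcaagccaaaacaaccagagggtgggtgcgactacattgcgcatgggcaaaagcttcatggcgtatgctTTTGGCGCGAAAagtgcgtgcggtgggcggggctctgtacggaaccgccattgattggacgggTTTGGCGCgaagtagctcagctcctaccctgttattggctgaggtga
Orc1: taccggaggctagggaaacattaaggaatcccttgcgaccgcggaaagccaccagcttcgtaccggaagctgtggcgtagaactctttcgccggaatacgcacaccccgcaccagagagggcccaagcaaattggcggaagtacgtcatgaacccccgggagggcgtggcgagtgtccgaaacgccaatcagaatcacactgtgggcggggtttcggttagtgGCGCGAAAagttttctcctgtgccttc
Cdc6: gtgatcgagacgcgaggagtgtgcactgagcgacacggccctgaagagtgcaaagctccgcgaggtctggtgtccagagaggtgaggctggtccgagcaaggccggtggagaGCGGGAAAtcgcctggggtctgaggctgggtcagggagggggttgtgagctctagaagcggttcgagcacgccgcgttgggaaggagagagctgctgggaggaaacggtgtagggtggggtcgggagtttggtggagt
Mcm7: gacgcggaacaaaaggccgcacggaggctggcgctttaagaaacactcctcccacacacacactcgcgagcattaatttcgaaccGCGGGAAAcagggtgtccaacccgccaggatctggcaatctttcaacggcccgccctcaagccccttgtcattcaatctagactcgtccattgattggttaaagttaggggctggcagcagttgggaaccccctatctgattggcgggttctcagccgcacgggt
E2f8: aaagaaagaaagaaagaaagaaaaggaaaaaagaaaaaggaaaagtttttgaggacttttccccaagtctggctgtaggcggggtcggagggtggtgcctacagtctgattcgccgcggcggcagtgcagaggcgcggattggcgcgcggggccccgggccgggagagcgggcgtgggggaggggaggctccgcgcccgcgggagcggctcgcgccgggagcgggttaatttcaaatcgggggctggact

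In Mcm5 the word TTTCGCGC overlaps TTTGGCGC on the other strand, and in Mcm6 the same words overlap with their strands exchanged, followed by TTTGGCGC nearer to the start. Among the 39 genes with a promoter, the 15 with a word had a median log2 difference of -0.63 between PBS and non-SP (range -1.07 to -0.01), and the 24 without a word had a median of -0.48 (range -1.38 to -0.02). The medians with and without a word were 0.73 and 0.50 in D-gel@GSNP against PBS, -0.12 and -0.32 in L-gel@GSNP against PBS and 0.01 and -0.21 in D-gel@NP against PBS. The genes with a word thus had the larger median difference in PBS against non-SP and in D-gel@GSNP against PBS and the smaller one in the others, the ranges overlapped, and no test was made of this split.

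Totals ran from 16.6 M counts in D-gel@NP 1 to 98.1 M in L-gel@GSNP 3. Levels below are in CPM, the counts scaled to the library total with TMM factors and listed for replicates 1, 2 and 3 of a group, which have no order. A gene is said to have risen or fallen where the Benjamini-Hochberg adjusted p of edgeR's quasi-likelihood test, fitted and adjusted over all 17497 genes, was under 0.05, and differences are log2 values ± SE. L-gel@GSNP 3, the deepest library, was the lowest of its group in 41 of the 49 genes, and several results that rest on it are given with and without it. Prom1, which encodes the CD133 of the label, was close to 0 in every group, with means of 0.0161 CPM in non-SP and 0.157 in PBS. The other markers listed for the labelled population, Abcg2 and Abcb1a, were well above 0. Mean Abcb1a stood at 41.2 CPM for PBS, with 43.2 for D-gel@NP and 45.6 for L-gel@GSNP. It was lower elsewhere, at 18.0 CPM for non-SP and 18.3 for D-gel@GSNP. Abcg2 varied less, its lowest group mean being 48.0 CPM (non-SP) and its highest 54.3 CPM (PBS). Genes of the mitochondrial genome took 2.82% to 2.92% of the counts in non-SP, 2.82% to 3.37% in D-gel@GSNP, 5.69% to 6.35% in PBS, 4.47% to 4.84% in D-gel@NP and 4.28% to 4.63% in L-gel@GSNP. In bulk RNA, fewer cells in S phase and less RNA per cell cannot be told apart.

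Summed over the 49 genes, the level was 8346 ± 254 CPM in D-gel@GSNP, 7925 ± 44.8 in non-SP, 5394 ± 24.3 in PBS, 5074 ± 75.3 in D-gel@NP and 4645 ± 354 in L-gel@GSNP (SD, n = 3). The summed level was thus highest in non-SP and D-gel@GSNP, lower in PBS and lowest in L-gel@GSNP and D-gel@NP. It is relative to the library and not a measure per cell. Between D-gel@NP and PBS the genes were mixed, with 35 estimates below 0 and 14 above. D-gel@GSNP had the highest mean of the 5 groups in 41 genes and non-SP in 8, and the lowest mean was that of L-gel@GSNP in 39 genes, D-gel@NP in 6 and PBS in 4. The single most frequent order, D-gel@GSNP above non-SP, PBS, D-gel@NP and then L-gel@GSNP, held in 24 genes. These counts were made with all libraries and not repeated without L-gel@GSNP 3 or D-gel@GSNP 1. D-gel@GSNP 1 was the highest of its group in 31 of the 49 genes. The sums of D-gel@GSNP 1, 2 and 3 were 8637, 8169 and 8232 CPM. The sums of L-gel@GSNP 1, 2 and 3 were 4764, 4924 and 4247 CPM, and those of D-gel@NP 4988, 5113 and 5123 CPM.

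**Figure D1:**
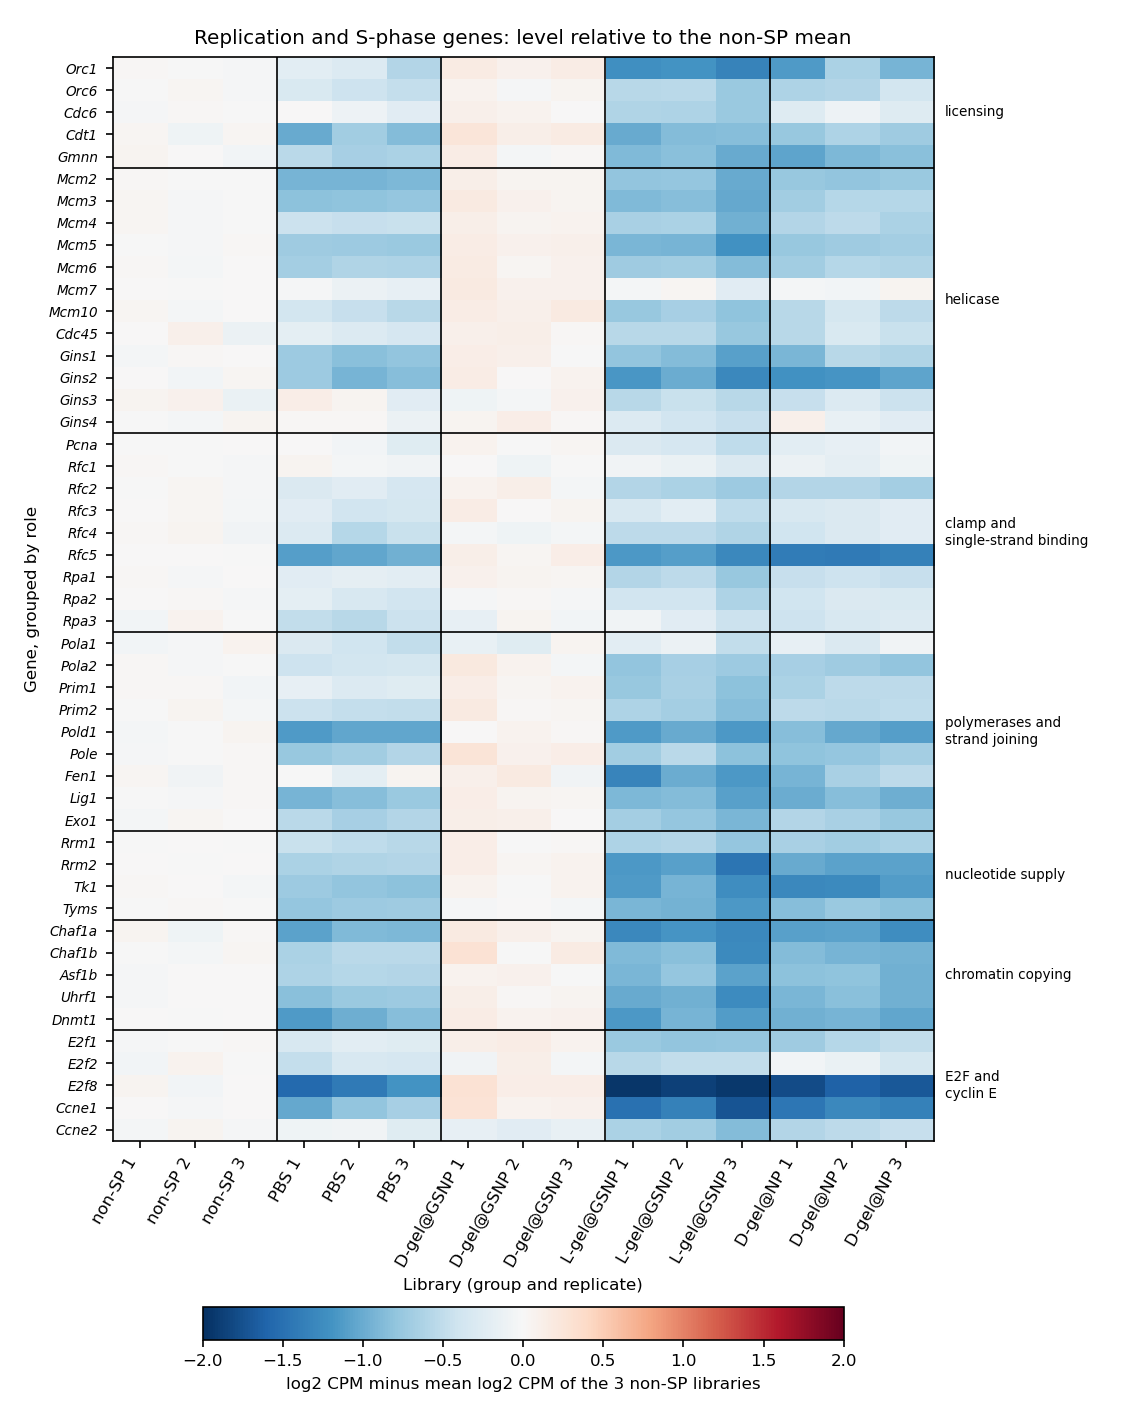
Level of each of the 49 genes in each of the 15 libraries, as log2 CPM minus the mean log2 CPM of the 3 non-SP libraries (blue lower, red higher), with genes in rows grouped by role. PBS, L-gel@GSNP and D-gel@NP are blue in most rows, E2f8 is the darkest row, D-gel@GSNP stays pale, and Mcm7 and Rfc1 stay pale in all groups.

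Against non-SP, 41 of the 49 genes fell in PBS (83.7%) and 0 rose, where 26.1% of all tested genes fell and 27.6% rose. Their median log2 difference was -0.50, with a median of 0.02 over all genes. With upper-quartile factors the median of the 49 was -0.44, and 5343 of all genes rose and 4016 fell, against 4824 and 4564. The 8 genes not called were Cdc6, Mcm7, Gins3, Gins4, Pcna, Rfc1, Fen1 and Ccne2, whose 95% intervals lay within -0.30 and 0.20. All 4 nucleotide supply genes and all 5 genes of chromatin copying fell, as did 9 of 12 helicase genes, 4 of 5 licensing genes, 7 of 9 clamp and single-strand binding genes, 8 of 9 genes of polymerases and strand joining and 4 of 5 E2F and cyclin E genes. E2f8, Pold1 and Rfc5 fell by 2-fold or more, that is 3 of the 49, where 12.5% of all genes were called with at least that difference in either direction.

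Against PBS, 43 genes rose in D-gel@GSNP (87.8%) and 0 fell, where 27.4% of all genes rose and 27.5% fell, and the median log2 difference was 0.55. With upper-quartile factors 42 rose and the median was 0.47, while 4066 of all genes rose and 5561 fell, against 4802 and 4819. In L-gel@GSNP 35 fell and 1 rose, Rpa3, where 24.1% of all genes fell and 21.5% rose, and the median was -0.28 (with upper-quartile factors 4560 of all genes rose and 3421 fell, against 3761 and 4218). Without L-gel@GSNP 3, 31 genes were called there, with Mcm2 and Pola1 among those that rose. In D-gel@NP 20 fell and 2 rose, Mcm2 and Mcm3, where 16.3% of all genes fell and 14.2% rose, and the median was -0.11. With upper-quartile factors that median was -0.07, with 4 of the genes rising and 18 falling, and 2974 of all genes rose and 2221 fell, against 2479 and 2848. D-gel@GSNP cells thus stood above PBS in most of the replication genes, and L-gel@GSNP and D-gel@NP cells below PBS in part of them. The medians over all genes were between -0.02 and 0.00 in these 3 comparisons, which share the PBS libraries with each other and with the comparison above.

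The mitochondrial share also differed between these groups, as did part of a list of 12 macrophage and microglia markers. That share and the list's sum were highest in PBS, not in the groups where the replication genes were lowest. The list's sum was 22.2 to 23.1 CPM in D-gel@GSNP, 21.1 to 22.3 in non-SP, 89.8 to 101 in PBS, 55.9 to 65.2 in D-gel@NP and 58.0 to 62.1 in L-gel@GSNP. Of its 9 tested markers 6 rose in PBS against non-SP and 5 fell in D-gel@GSNP against PBS. Over all genes 27.6% rose in the first comparison and 27.5% fell in the second. Cd68, Cd14 and Csf1r made up most of the sum. Itgam averaged 0.137 CPM in D-gel@GSNP, 0.0983 in non-SP, 1.79 in PBS, 2.48 in D-gel@NP and 3.92 in L-gel@GSNP, and Ptprc averaged 0.0431, 0.0240, 0.456, 0.320 and 0.487 CPM in the same order. Fcer1g was highest in D-gel@GSNP, with averages of 0.413, 0.303, 0.165, 0.242 and 0.178 CPM in that order. P2ry12 averaged 1.41, 1.56, 2.07, 0.943 and 0.983 CPM and was thus lowest in D-gel@NP and L-gel@GSNP. Adgre1 was at 0 in non-SP and averaged at most 0.337 CPM, in D-gel@NP, and Tyrobp was at 0 in non-SP, PBS and L-gel@GSNP. The sum of 5 endothelial markers was 2.38 CPM in D-gel@GSNP, 2.26 in non-SP, 17.2 in PBS, 11.1 in D-gel@NP and 6.93 in L-gel@GSNP on average, mostly Vwf, and 5 lymphocyte markers summed to 0 CPM in non-SP and D-gel@GSNP and to at most 0.232 CPM in any library. The part of these transcripts in the result was not tested.

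**Figure D2:**
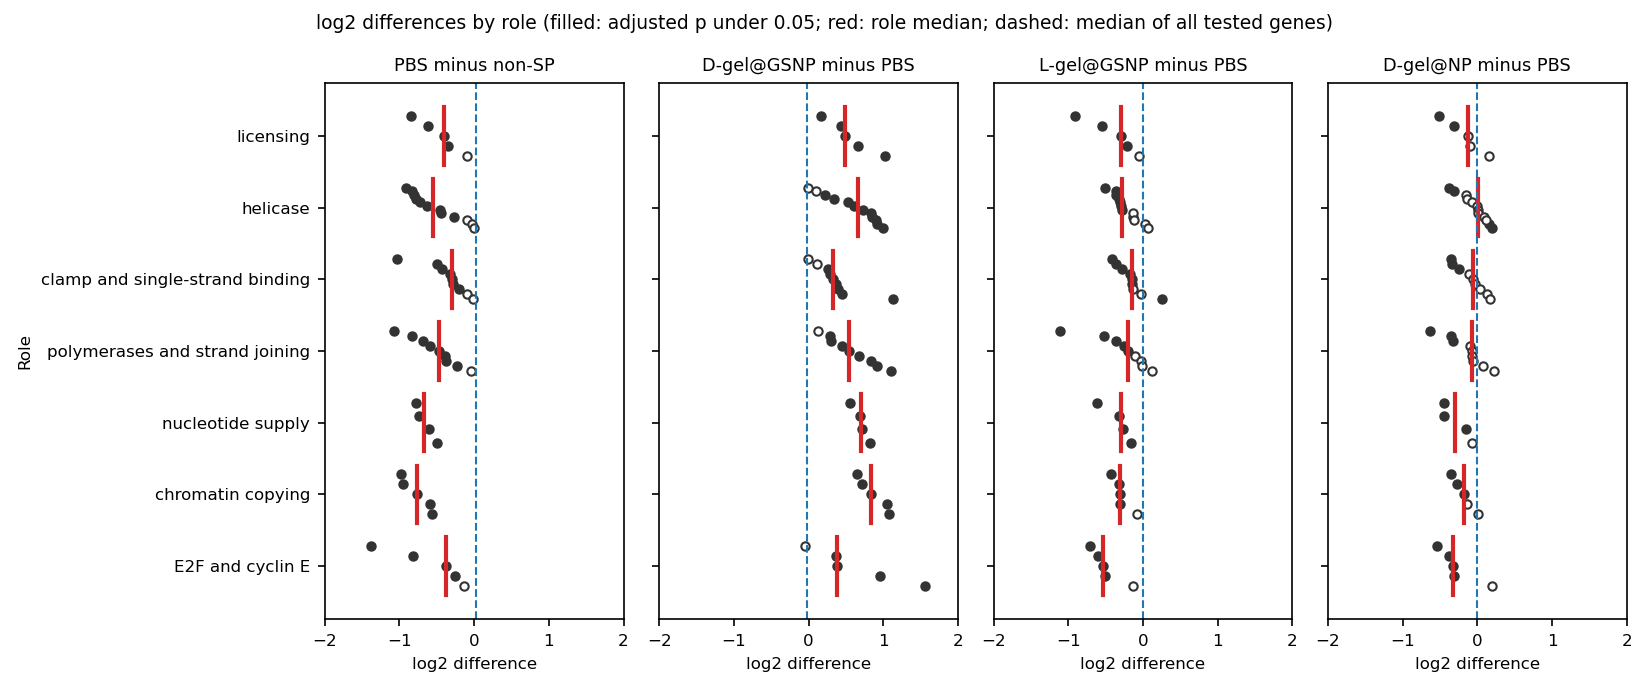
log2 difference of each gene by role, for PBS minus non-SP and for each hydrogel group minus PBS; filled points passed the test, the red bar is the role's median and the dashed line the median of all tested genes. Chromatin copying and nucleotide supply have every point filled in the first 2 panels, and in the last panel most points are open.

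Among the licensing genes, all 5 rose in D-gel@GSNP against PBS and 4 fell in PBS against non-SP. Over all genes 27.4% rose in the first comparison and 26.1% fell in the second. Cdt1, which loads the MCM ring, stood at 131, 119 and 123 CPM in D-gel@GSNP, 113, 104 and 113 in non-SP, 54.8, 68.1 and 60.3 in PBS, 64.7, 71.6 and 67.2 in D-gel@NP and 54.8, 60.5 and 60.7 in L-gel@GSNP. The PBS libraries overlapped those of D-gel@NP and of L-gel@GSNP, and all 9 lay below every non-SP and D-gel@GSNP library. Cdt1 fell by 1.80-fold in PBS (log2 -0.85 ± 0.07, adjusted p = 6.61e-10) and rose 2.03-fold in D-gel@GSNP against PBS (log2 1.02 ± 0.07). Its difference from PBS was -0.06 ± 0.07 in L-gel@GSNP and 0.15 ± 0.07 in D-gel@NP, neither of which was called; the second was called without PBS 2 (adjusted p = 0.016).

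Orc1, the largest subunit of the origin recognition complex, was measured at 30.8, 29.0 and 30.3 CPM in D-gel@GSNP, 27.8, 27.3 and 27.0 in non-SP, 23.6, 22.5 and 18.2 in PBS, 12.5, 17.6 and 14.4 in D-gel@NP and 11.7, 11.9 and 10.8 in L-gel@GSNP. Here the hydrogel groups parted: every L-gel@GSNP library was below every D-gel@NP library, and both groups were below PBS. Orc1 fell in PBS against non-SP (log2 -0.35 ± 0.10, adjusted p = 0.00517) and fell further, by 1.88-fold, in L-gel@GSNP against PBS (log2 -0.91 ± 0.10, adjusted p = 2.45e-07). Between D-gel@GSNP and L-gel@GSNP the difference was 1.40 ± 0.10, a 2.63-fold higher level in the former. Orc1 was not the most abundant of the licensing genes per length, with a mean of 6.01 FPKM (counts scaled to gene length and library total, so that genes can be compared) over all libraries against 39.8 for Orc6 and 39.1 for Gmnn.

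Orc6, another subunit of the same complex, was at 125, 117 and 123 CPM in D-gel@GSNP, 118, 123 and 117 in non-SP, 96.5, 89.1 and 85.8 in PBS, 77.7, 79.1 and 92.2 in D-gel@NP and 81.2, 81.7 and 71.7 in L-gel@GSNP. Its PBS libraries lay below non-SP, and its L-gel@GSNP and D-gel@NP libraries overlapped each other. Orc6 fell by 1.32-fold in PBS (log2 -0.40 ± 0.07) and rose by 1.35-fold in D-gel@GSNP against PBS. The fall in L-gel@GSNP against PBS (log2 -0.21 ± 0.07, adjusted p = 0.0107) was not called without PBS 1 or L-gel@GSNP 3 in turn (adjusted p = 0.0859 to 0.1). Geminin (Gmnn), the inhibitor of Cdt1, gave 85.4, 75.0 and 78.0 CPM in D-gel@GSNP, 80.0, 76.9 and 73.8 in non-SP, 52.6, 48.5 and 49.7 in PBS, 37.0, 41.3 and 43.0 in D-gel@NP and 41.6, 42.8 and 38.4 in L-gel@GSNP. It fell by 1.53-fold in PBS (log2 -0.61 ± 0.07) and again against PBS in L-gel@GSNP (log2 -0.30 ± 0.07) and in D-gel@NP (log2 -0.31 ± 0.07).

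Cdc6, the loader that acts with the origin recognition complex, behaved differently from its 4 neighbours. Its levels were 89.7, 88.3 and 84.3 CPM in D-gel@GSNP, 82.5, 85.2 and 83.5 in non-SP, 84.4, 78.4 and 71.5 in PBS, 70.3, 78.0 and 70.2 in D-gel@NP and 55.2, 54.5 and 50.2 in L-gel@GSNP, so that L-gel@GSNP alone stood clear of the other groups. Cdc6 did not pass the test in PBS against non-SP (log2 -0.10 ± 0.06, interval -0.23 to 0.03), except without PBS 1 (adjusted p = 0.0407). It fell by 1.47-fold in L-gel@GSNP against PBS (log2 -0.55 ± 0.06, adjusted p = 1.73e-07), and the difference from PBS in D-gel@NP was -0.10 ± 0.06 (adjusted p = 0.251). The small rise in D-gel@GSNP against PBS (log2 0.16 ± 0.06, adjusted p = 0.0279) was lost without PBS 2, PBS 3, D-gel@GSNP 1 or D-gel@GSNP 2 in turn (adjusted p = 0.0568 to 0.164).

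The helicase genes had the highest median level per length of the 7 roles. Of the 12, 10 rose in D-gel@GSNP against PBS, where 27.4% of all genes rose. Mcm2, a subunit of the MCM ring, was at 422, 402 and 402 CPM in D-gel@GSNP, 392, 385 and 385 in non-SP, 203, 203 and 208 in PBS, 229.5, 223 and 232 in D-gel@NP and 224, 227 and 192 in L-gel@GSNP. The 6 non-SP and D-gel@GSNP libraries formed an upper set and the other 9 a lower set, with no library between them. The level was 1.89-fold lower in PBS than in non-SP (log2 -0.92 ± 0.05, adjusted p = 2.46e-12) and 1.99-fold higher in D-gel@GSNP than in PBS. Mcm2 was 1 of the 2 genes that rose in D-gel@NP against PBS, by 1.11-fold (log2 0.15 ± 0.05, adjusted p = 0.0291), a call that was lost without PBS 1, PBS 2, D-gel@NP 1 or D-gel@NP 3 in turn (adjusted p = 0.0503 to 0.0835). In L-gel@GSNP its difference from PBS was 0.06 ± 0.05, and it was called without L-gel@GSNP 3 (adjusted p = 0.011).

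Mcm3, with 105 FPKM the most abundant helicase gene, showed 585, 547 and 537 CPM in D-gel@GSNP, 529, 508 and 510.3 in non-SP, 292, 296 and 301 in PBS, 319.7, 348 and 348 in D-gel@NP and 279.5, 284 and 254 in L-gel@GSNP. It was the other gene that rose in D-gel@NP against PBS (log2 0.19 ± 0.05, adjusted p = 0.00577), and all 3 D-gel@NP libraries were above all 3 PBS libraries. L-gel@GSNP lay below D-gel@NP in every library (log2 -0.31 ± 0.05, adjusted p = 0.000119). Mcm3 fell by 1.74-fold in PBS against non-SP and rose by 1.88-fold in D-gel@GSNP against PBS.

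Mcm5 and Mcm6, whose upstream bases hold 2 and 3 E2F words, fell by 1.65-fold and 1.55-fold in PBS (log2 -0.73 ± 0.06 and -0.63 ± 0.05). Mcm5 was at 326, 311 and 314 CPM in D-gel@GSNP, 292, 290.0 and 300.3 in non-SP, 179.8, 178 and 176 in PBS, 173, 180.4 and 184 in D-gel@NP and 156, 155 and 127 in L-gel@GSNP. Its L-gel@GSNP libraries were all below its PBS libraries (log2 -0.29 ± 0.06, adjusted p = 0.000379), while the D-gel@NP libraries overlapped those of PBS (log2 0.01 ± 0.06, interval -0.11 to 0.14). Mcm4 fell less, by 1.36-fold, and Mcm10, a factor that helps to activate the helicase, by 1.38-fold.

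Mcm7, a subunit of the same ring, did not follow Mcm2 to Mcm6. It stood at 462, 433 and 433 CPM in D-gel@GSNP, 408, 402 and 409 in non-SP, 399, 377 and 361 in PBS, 395, 389.9 and 423 in D-gel@NP and 396, 417 and 349 in L-gel@GSNP, and the libraries of PBS, L-gel@GSNP and D-gel@NP all overlapped one another. Its difference between PBS and non-SP was -0.10 ± 0.06 (interval -0.22 to 0.02), against -0.92, -0.80, -0.45, -0.73 and -0.63 for Mcm2 to Mcm6. Mcm7 was the only one of the 49 genes that was not called in L-gel@GSNP against non-SP (log2 -0.07 ± 0.06). It did rise in D-gel@GSNP against PBS (log2 0.23 ± 0.06, adjusted p = 0.00184). The annotation places other exons over 12.6% of its exonic bases, among them Ap4m1 and Cops6. The strand setting of the counting is not given in the sources used here. Its counts may therefore hold reads of those genes or lack some of its own. Among the other genes named here, exons on the other strand cover 10.7% to 15.1% of Rfc2, Rfc4, Rfc5, E2f8 and Orc1 and 17.4% of Ccne2.

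**Figure D3:**
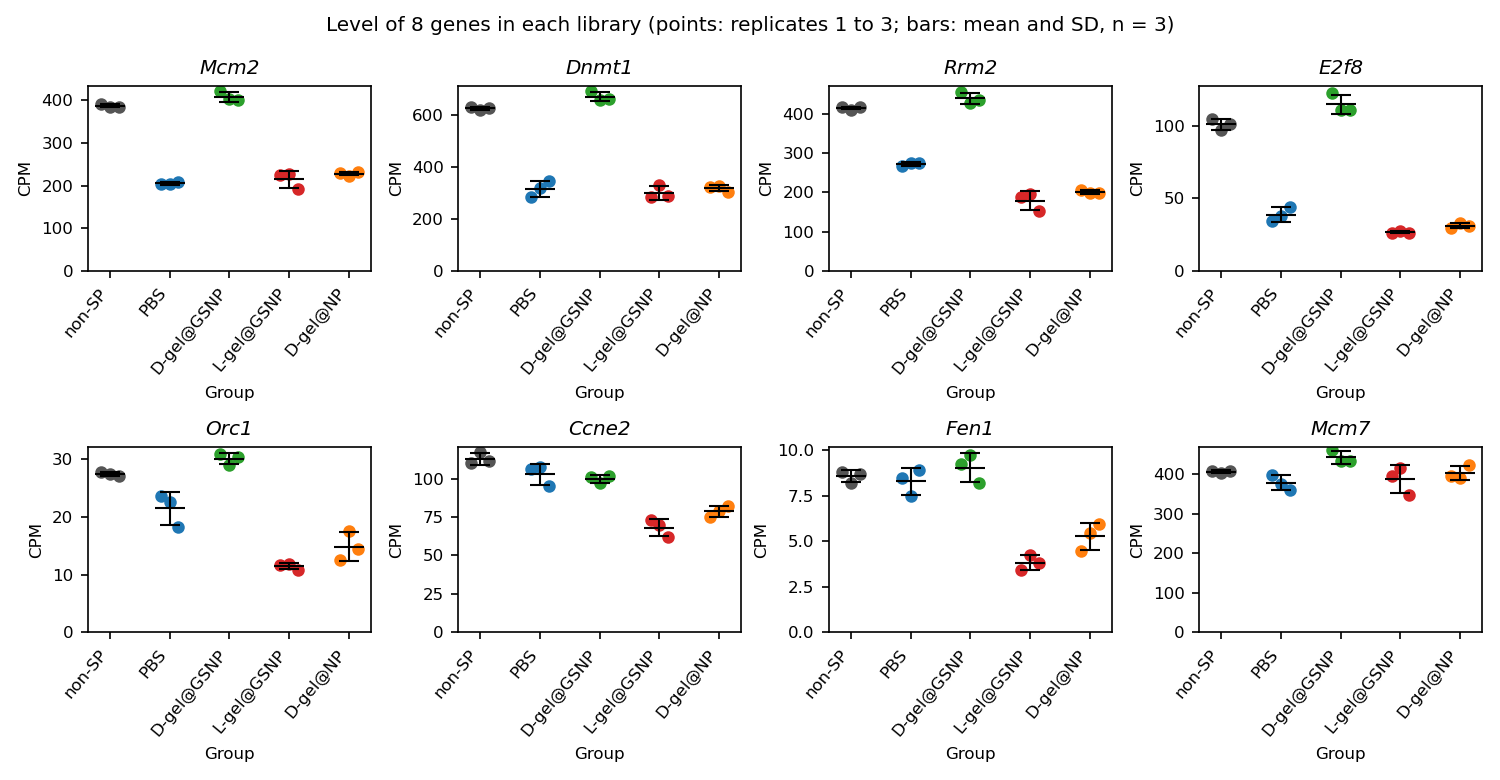
Level in CPM of 8 genes in each library (points), with the mean and SD of the 3 libraries of each group; all axes start at 0. Mcm2, Dnmt1, Rrm2 and E2f8 are high in non-SP and D-gel@GSNP and low in the other groups, Fen1 and Ccne2 are lowest in L-gel@GSNP and D-gel@NP, and Mcm7 is nearly level.

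The 4 GINS genes, whose proteins form a complex that completes the helicase, split into 2 pairs. Gins1 fell by 1.72-fold and Gins2 by 1.79-fold in PBS against non-SP (log2 -0.78 ± 0.09 and -0.84 ± 0.08), whereas Gins3 and Gins4 differed by -0.01 ± 0.09 and -0.03 ± 0.08 and were not called. Gins3 was at 22.7, 23.3 and 25.5 CPM in D-gel@GSNP, 25.1, 25.5 and 21.9 in non-SP, 26.5, 25.1 and 20.6 in PBS, 17.5, 20.0 and 17.9 in D-gel@NP and 16.5, 17.7 and 16.4 in L-gel@GSNP. Its non-SP, PBS and D-gel@GSNP libraries overlapped and its L-gel@GSNP and D-gel@NP libraries were below all of them, with differences from PBS of -0.51 ± 0.09 (adjusted p = 9.85e-05) and -0.37 ± 0.09 (adjusted p = 0.00448). Gins4 fell in L-gel@GSNP against PBS (log2 -0.35 ± 0.08), and its difference in D-gel@NP was -0.07 ± 0.08. Cdc45, the partner of GINS in the helicase, fell by 1.21-fold in PBS and by 1.28-fold in L-gel@GSNP against PBS. Exons of Gse1 on the other strand cover 67.3% of the exonic bases of Gins2, so without a known strand setting its level is uncertain.

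The clamp and single-strand binding genes had the smallest median fall of the 7 roles in PBS, -0.29, and Rfc5 had the largest fall among them. Pcna, the sliding clamp, gave 259, 246 and 253 CPM in D-gel@GSNP, 247, 246 and 249 in non-SP, 249, 238 and 210.3 in PBS, 213, 221 and 237 in D-gel@NP and 203, 196 and 174 in L-gel@GSNP. Non-SP, PBS and D-gel@GSNP overlapped, and the L-gel@GSNP libraries were below all of them. Its difference in PBS against non-SP was -0.09 ± 0.06 (interval -0.22 to 0.04), and it fell by 1.22-fold in L-gel@GSNP against PBS (log2 -0.28 ± 0.06, adjusted p = 0.000651). Rfc1, the large subunit of the clamp loader, had the most even group means of the 49 genes and was at 153, 144 and 153 CPM in D-gel@GSNP, 156, 152 and 151 in non-SP, 159, 148 and 146 in PBS, 142, 135 and 144 in D-gel@NP and 145, 140.0 and 125 in L-gel@GSNP. Its difference was -0.02 ± 0.05 in PBS against non-SP and -0.01 ± 0.05 in D-gel@GSNP against PBS. Its higher level in D-gel@GSNP than in L-gel@GSNP (log2 0.14 ± 0.05, adjusted p = 0.0347) turned to -0.01 with upper-quartile factors and was not called without D-gel@GSNP 1, D-gel@GSNP 3, L-gel@GSNP 2 or L-gel@GSNP 3 in turn (adjusted p = 0.0581 to 0.324).

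Rfc5, a small subunit of the same loader, was at 136, 130.0 and 138 CPM in D-gel@GSNP, 126, 127 and 125 in non-SP, 58.9, 61.5 and 64.7 in PBS, 47.6, 47.2 and 49.6 in D-gel@NP and 56.8, 59.0 and 51.6 in L-gel@GSNP. Its PBS, L-gel@GSNP and D-gel@NP libraries all lay far below the non-SP level, and the D-gel@NP libraries were below all others. Rfc5 fell by 2.04-fold in PBS (log2 -1.03 ± 0.05, adjusted p = 6.64e-13), against 1.22-fold for Rfc2, 1.25-fold for Rfc3 and 1.34-fold for Rfc4. It rose by 2.18-fold in D-gel@GSNP against PBS and stood 2.80-fold higher in D-gel@GSNP than in D-gel@NP. Rfc5 was also the one gene that was higher in L-gel@GSNP than in D-gel@NP (log2 0.21 ± 0.06, adjusted p = 0.0105), a call lost without L-gel@GSNP 2 (adjusted p = 0.0681).

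The single-strand binding proteins of the RPA complex coat the unwound strands. Rpa1, the largest subunit, was at 382, 373 and 367 CPM in D-gel@GSNP, 363, 351 and 360.4 in non-SP, 306, 316 and 310.4 in PBS, 260.0, 268 and 261 in D-gel@NP and 237, 249.6 and 211 in L-gel@GSNP. No library of any group overlapped those of another group, with D-gel@GSNP just above non-SP. Rpa1 fell by 1.15-fold in PBS (log2 -0.20 ± 0.05) and by 1.34-fold in L-gel@GSNP against PBS (log2 -0.42 ± 0.05, adjusted p = 5.7e-07). Rpa3, the smallest subunit, was at 41.2, 47.7 and 44.4 CPM in D-gel@GSNP, 44.4, 48.2 and 45.5 in non-SP, 32.7, 31.3 and 34.0 in PBS, 34.6, 36.9 and 38.1 in D-gel@NP and 43.8, 39.4 and 34.1 in L-gel@GSNP. It fell by 1.41-fold in PBS and was the only gene that rose in L-gel@GSNP against PBS (log2 0.25 ± 0.08, adjusted p = 0.0115), a call lost without PBS 2 or L-gel@GSNP 1 in turn (adjusted p = 0.0567 to 0.0778). Rpa2 fell by 1.23-fold in PBS (log2 -0.29 ± 0.07).

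Of the polymerase and strand-joining genes, 8 of 9 fell in PBS against non-SP, where 26.1% of all genes fell. Pold1, the catalytic subunit of the lagging-strand polymerase delta, was measured at 119.8, 126 and 121 CPM in D-gel@GSNP, 116, 119 and 123 in non-SP, 54.6, 58.0 and 57.7 in PBS, 65.9, 58.7 and 55.5 in D-gel@NP and 54.2, 59.2 and 53.7 in L-gel@GSNP. The 9 libraries of PBS, L-gel@GSNP and D-gel@NP overlapped, far below the other 6. Pold1 fell in PBS (log2 -1.07 ± 0.06, interval -1.20 to -0.95, adjusted p = 1.43e-12) and rose by 2.15-fold in D-gel@GSNP against PBS, and its differences from PBS were -0.03 ± 0.06 in L-gel@GSNP and 0.07 ± 0.06 in D-gel@NP. Pole, the catalytic subunit of the leading-strand polymerase epsilon, fell by 1.60-fold in PBS (log2 -0.68 ± 0.07) and rose by 1.79-fold in D-gel@GSNP against PBS.

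Lig1, the ligase that seals Okazaki fragments, was at 167, 159 and 157 CPM in D-gel@GSNP, 153, 151 and 155 in non-SP, 80.5, 84.8 and 91.3 in PBS, 76.6, 84.5 and 77.9 in D-gel@NP and 82.1, 83.9 and 72.3 in L-gel@GSNP. It too lay in 2 sets of libraries, with a fall of 1.79-fold in PBS (log2 -0.84 ± 0.06, adjusted p = 8.88e-11) and a rise of 1.89-fold in D-gel@GSNP against PBS. Pola1, the catalytic subunit of polymerase alpha, gave 86.0, 80.5 and 98.6 CPM in D-gel@GSNP, 92.2, 94.2 and 99.7 in non-SP, 78.1, 72.0 and 67.6 in PBS, 84.7, 78.0 and 90.5 in D-gel@NP and 82.7, 87.7 and 67.9 in L-gel@GSNP and was among the least changed. It fell in PBS (log2 -0.39 ± 0.08) and was the only gene not called between D-gel@GSNP and L-gel@GSNP (log2 0.16 ± 0.08, interval -0.02 to 0.33), although it was called without D-gel@GSNP 2 or L-gel@GSNP 2 in turn (adjusted p = 0.0372 to 0.0404).

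Prim1, the primase subunit that makes the RNA primer, was at 128, 119.7 and 122 CPM in D-gel@GSNP, 119, 119 and 113 in non-SP, 104, 96.2 and 99.2 in PBS, 74.9, 81.7 and 81.6 in D-gel@NP and 69.1, 74.1 and 66.5 in L-gel@GSNP. Its 5 groups formed steps, with PBS between non-SP and the 2 lower hydrogel groups. The fall in PBS was 1.17-fold (log2 -0.23 ± 0.05), and that in L-gel@GSNP against PBS was 1.43-fold (log2 -0.52 ± 0.05, adjusted p = 7.94e-08). In the regulatory primase subunit Prim2 the falls were 1.38-fold and 1.19-fold. Exo1, an exonuclease of mismatch repair and strand resection, fell by 1.51-fold in PBS (log2 -0.60 ± 0.06).

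Fen1, the nuclease that trims the flaps of Okazaki fragments, differed from the rest of its group. It was at 9.22, 9.70 and 8.18 CPM in D-gel@GSNP, 8.79, 8.17 and 8.69 in non-SP, 8.48, 7.46 and 8.91 in PBS, 4.47, 5.42 and 5.92 in D-gel@NP and 3.40, 4.26 and 3.82 in L-gel@GSNP. Non-SP, PBS and D-gel@GSNP overlapped between 7.46 and 9.70 CPM, and all L-gel@GSNP and D-gel@NP libraries were below them. The difference in PBS against non-SP was -0.05 ± 0.12 (interval -0.30 to 0.20), while Fen1 fell by 2.16-fold in L-gel@GSNP (log2 -1.11 ± 0.13, adjusted p = 2.14e-07) and by 1.55-fold in D-gel@NP (log2 -0.63 ± 0.13, adjusted p = 0.000644) against PBS. These were the largest falls among the 49 genes in both comparisons. Exons of Tmem258 and Gm10143 on the other strand cover 84.2% of the exonic bases of Fen1, and with 2.87 FPKM its level was among the lowest of the 49. Without a known strand setting, the counts may hold reads of those genes or lack some of Fen1, so this level is uncertain.

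All 4 nucleotide supply genes fell in PBS against non-SP, rose in D-gel@GSNP against PBS and fell in L-gel@GSNP against PBS. The shares of all genes that did so were 26.1%, 27.4% and 24.1%. Rrm2, the regulated subunit of ribonucleotide reductase, which makes deoxynucleotides, was the most abundant of the 49 genes per length (108 FPKM) and stood at 456, 427 and 436 CPM in D-gel@GSNP, 417, 411 and 417 in non-SP, 267, 274 and 276 in PBS, 206, 197 and 197 in D-gel@NP and 188, 196 and 151 in L-gel@GSNP. The groups formed steps, with PBS below non-SP, and D-gel@NP and L-gel@GSNP below PBS without overlap with it. Rrm2 fell by 1.52-fold in PBS (log2 -0.61 ± 0.06), by 1.53-fold in L-gel@GSNP against PBS (log2 -0.61 ± 0.06, adjusted p = 8e-08) and by 1.36-fold in D-gel@NP against PBS (log2 -0.45 ± 0.06). Rrm1, the large catalytic subunit, was at 586, 534 and 542 CPM in D-gel@GSNP, 535, 538 and 532 in non-SP, 391, 378 and 364 in PBS, 340.3, 331 and 346 in D-gel@NP and 349, 355 and 314 in L-gel@GSNP. It fell by 1.42-fold in PBS (log2 -0.50 ± 0.05), and its falls against PBS were -0.15 ± 0.05 in L-gel@GSNP and -0.16 ± 0.05 in D-gel@NP. The first of these was not called without PBS 1 or L-gel@GSNP 3 in turn (adjusted p = 0.0904 to 0.147), and the second not without PBS 1, PBS 2, D-gel@NP 1 or D-gel@NP 2 in turn (adjusted p = 0.0579 to 0.121).

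Tk1, the thymidine kinase of the salvage route, was at 147, 139 and 147 CPM in D-gel@GSNP, 142, 141 and 137 in non-SP, 84.6, 81.0 and 79.1 in PBS, 57.4, 57.9 and 64.8 in D-gel@NP and 63.9, 73.1 and 59.3 in L-gel@GSNP. Its lowest group was D-gel@NP, although the difference between L-gel@GSNP and D-gel@NP was not called (log2 0.12 ± 0.07, interval -0.02 to 0.26). Tk1 fell by 1.72-fold in PBS (log2 -0.78 ± 0.06) and by 1.36-fold in D-gel@NP against PBS (log2 -0.44 ± 0.07, adjusted p = 2.76e-05). Tyms, thymidylate synthase, fell by 1.66-fold in PBS, and against PBS it fell in L-gel@GSNP (log2 -0.27 ± 0.06) but did not pass the test in D-gel@NP (log2 -0.07 ± 0.06).

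The genes that copy chromatin had the largest median fall of the 7 roles in PBS, -0.77, and the largest median rise in D-gel@GSNP against PBS, 0.84. Dnmt1, which copies DNA methylation, was at 690.4, 658 and 661 CPM in D-gel@GSNP, 629, 619 and 628 in non-SP, 284, 319 and 345 in PBS, 323, 327 and 304 in D-gel@NP and 282, 329 and 287 in L-gel@GSNP. The 6 libraries of non-SP and D-gel@GSNP lay at 619 CPM or above and the other 9 at 345 or below. Dnmt1 fell by 1.98-fold in PBS (log2 -0.98 ± 0.06, adjusted p = 1.22e-11) and rose by 2.12-fold in D-gel@GSNP against PBS, with differences from PBS of -0.08 ± 0.06 in L-gel@GSNP and 0.01 ± 0.06 in D-gel@NP. Uhrf1, which brings Dnmt1 to newly copied DNA, gave 421, 396 and 404 CPM in D-gel@GSNP, 383, 390.0 and 392 in non-SP, 216, 233 and 235 in PBS, 205, 217 and 200.3 in D-gel@NP and 193, 201 and 162 in L-gel@GSNP. Its fall in PBS was 1.70-fold (log2 -0.77 ± 0.06), and it fell again in L-gel@GSNP against PBS (log2 -0.30 ± 0.06, adjusted p = 0.000316).

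Chaf1a and Chaf1b are subunits of the factor that places histones on new DNA. Chaf1b was at 86.2, 70.1 and 78.6 CPM in D-gel@GSNP, 69.9, 68.6 and 72.3 in non-SP, 45.4, 48.6 and 48.5 in PBS, 38.5, 36.8 and 36.6 in D-gel@NP and 38.0, 39.4 and 29.1 in L-gel@GSNP, with a fall of 1.48-fold in PBS (log2 -0.56 ± 0.09) and falls against PBS of -0.43 ± 0.09 in L-gel@GSNP and -0.35 ± 0.09 in D-gel@NP. Chaf1a fell by 1.93-fold in PBS (log2 -0.95 ± 0.06) and stood 2.58-fold higher in D-gel@GSNP than in L-gel@GSNP. Exons of Ubxn6 on the other strand cover 52.5% of its exonic bases, which leaves its level uncertain. The histone chaperone gene Asf1b fell by 1.51-fold in PBS.

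E2f8, an E2F protein that represses E2F targets late in S phase, had the largest difference of all 49 genes in PBS against non-SP and in D-gel@GSNP against each of the other 3 treated groups. Its levels were 123, 111 and 111 CPM in D-gel@GSNP, 105, 96.8 and 101 in non-SP, 34.4, 37.8 and 44.1 in PBS, 29.3, 33.0 and 31.0 in D-gel@NP and 26.2, 27.7 and 26.4 in L-gel@GSNP. Non-SP and D-gel@GSNP lay between 96.8 and 123 CPM, PBS between 34.4 and 44.1, and the L-gel@GSNP and D-gel@NP libraries below every PBS library. E2f8 fell by 2.60-fold in PBS (log2 -1.38 ± 0.07, adjusted p = 6.03e-13) and rose by 2.96-fold in D-gel@GSNP against PBS (log2 1.56 ± 0.07). Against PBS it fell in L-gel@GSNP (log2 -0.54 ± 0.07) and in D-gel@NP (log2 -0.31 ± 0.08).

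E2f1, an activator of S-phase genes, was at 66.8, 67.8 and 64.4 CPM in D-gel@GSNP, 60.7, 61.4 and 62.3 in non-SP, 49.4, 52.9 and 51.8 in PBS, 37.7, 41.4 and 43.5 in D-gel@NP and 36.5, 35.5 and 36.1 in L-gel@GSNP. It moved far less than E2f8, with a fall of 1.20-fold in PBS (log2 -0.26 ± 0.06), and fell by 1.42-fold in L-gel@GSNP against PBS (log2 -0.51 ± 0.06, adjusted p = 1.78e-07). E2f2, a related activator, fell by 1.30-fold in PBS and was the least abundant gene per length (2.38 FPKM).

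The cyclin E genes, whose proteins drive the kinase that starts S phase, differed from each other. Ccne1 stood at 55.3, 47.9 and 48.8 CPM in D-gel@GSNP, 46.1, 45.3 and 46.1 in non-SP, 22.5, 26.6 and 29.0 in PBS, 16.9, 18.6 and 18.0 in D-gel@NP and 16.2, 18.0 and 13.8 in L-gel@GSNP. Each of PBS, D-gel@NP and L-gel@GSNP lay clear below non-SP, with a fall of 1.76-fold in PBS (log2 -0.82 ± 0.09), and Ccne1 fell by 1.64-fold in L-gel@GSNP against PBS (log2 -0.71 ± 0.10, adjusted p = 2.28e-06). Ccne2 was at 101, 96.9 and 102 CPM in D-gel@GSNP, 110.0, 117 and 112 in non-SP, 106, 107 and 95.0 in PBS, 75.2, 78.7 and 82.2 in D-gel@NP and 72.7, 69.6 and 61.8 in L-gel@GSNP. Its PBS libraries differed from non-SP by -0.14 ± 0.06 (adjusted p = 0.0643), a difference called without PBS 2 (adjusted p = 0.0457), and it fell by 1.51-fold in L-gel@GSNP (log2 -0.60 ± 0.06) and 1.30-fold in D-gel@NP (log2 -0.38 ± 0.06) against PBS. D-gel@GSNP differed from PBS by little in this gene (log2 -0.04 ± 0.06, interval -0.17 to 0.08).

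D-gel@GSNP and L-gel@GSNP carry the same code name and differ by the prefix D or L. Of the 49 genes 48 were higher in D-gel@GSNP (98%) and 0 lower, where 30.5% of all genes were higher and 31.3% lower, with a median log2 difference of 0.87 and -0.04 over all genes. In 46 of the 49 no library of one group overlapped the other, against 67.3% of all genes. The difference reached 2-fold in 17 genes (19.5% of all genes were called with such a difference in either direction), with 4.29-fold for E2f8 (log2 interval 1.95 to 2.25, adjusted p = 4.68e-16), 3.18-fold for Ccne1, 2.63-fold for Orc1 and 2.47-fold for Rrm2. Without L-gel@GSNP 3 it was 45 genes that were called. Upper-quartile factors, which shifted the median of all genes by -0.14 in this comparison, gave 45 and a median over the 49 genes of 0.72, with 4180 of all genes higher and 6778 lower, against 5339 and 5475.

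D-gel@GSNP and D-gel@NP share the prefix D and differ in the code name. Here 45 genes were higher in D-gel@GSNP (91.8%) and 0 lower, where 28.8% of all genes were higher and 29.6% lower, with a median of 0.72. With upper-quartile factors 40 were called, and 3961 of all genes were higher and 6303 lower, against 5031 and 5183. The largest differences were E2f8 (3.67-fold, log2 1.88 ± 0.08), Ccne1 (2.82-fold) and Rfc5 (2.80-fold). The 4 genes not called were Gins4, Rfc1, Pola1 and E2f2, whose intervals lay within -0.11 and 0.39.

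L-gel@GSNP and D-gel@NP differ in both labels, and their levels lay closer together. In L-gel@GSNP 19 genes were lower and 1 higher than in D-gel@NP (11.1% of all genes were lower and 8.33% higher), with a median of -0.14. The clearest were Cdc6 (log2 -0.46 ± 0.06, adjusted p = 1.82e-05), Mcm3 (log2 -0.31 ± 0.05, adjusted p = 0.000119) and Mcm5 (log2 -0.30 ± 0.06, adjusted p = 0.00102), while the largest difference was that of Fen1 (log2 -0.48 ± 0.13), which was not called without L-gel@GSNP 1 or D-gel@NP 3 in turn (adjusted p = 0.0521 to 0.084). The median was -0.07 without L-gel@GSNP 3, and the count fell to 9 without L-gel@GSNP 3 or without D-gel@NP 2, to 10 without D-gel@NP 3 and to 8 in a fit of these 6 libraries alone. Orc1 (log2 -0.40 ± 0.11, adjusted p = 0.0109) was not called without D-gel@NP 2 (adjusted p = 0.131).

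**Figure D4:**
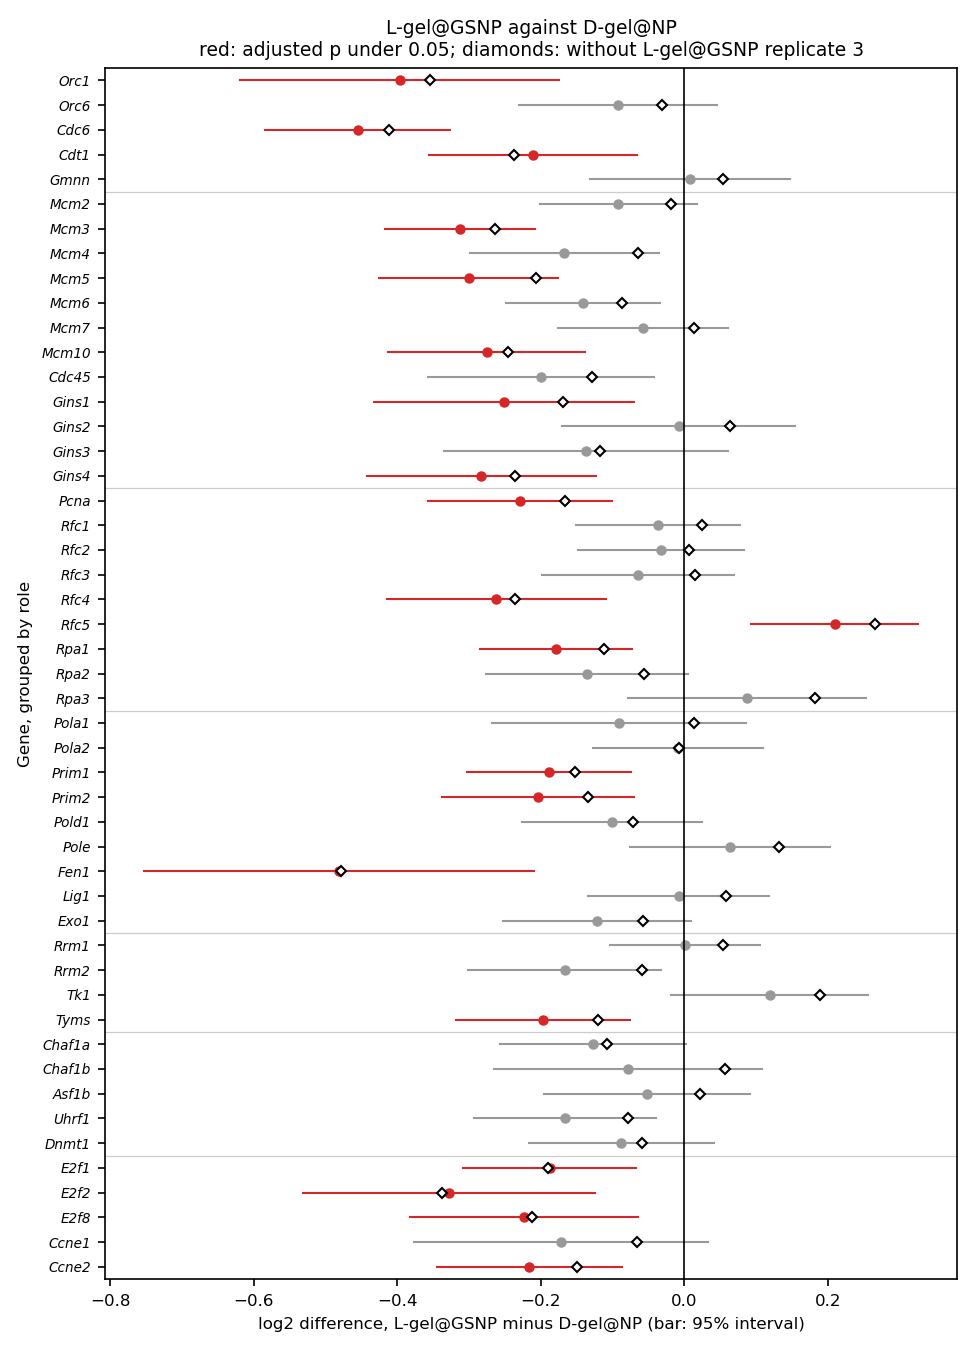
log2 difference between L-gel@GSNP and D-gel@NP for each of the 49 genes (points) with 95% intervals (bars), red where the gene was called; diamonds are the values without L-gel@GSNP replicate 3. Most points lie left of 0, Fen1 and Cdc6 farthest, Rfc5 lies right of 0, and most diamonds lie to the right of their points.

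D-gel@GSNP was close to non-SP. None of the 49 genes was called between these groups by edgeR or by DESeq2, where 0.417% of all genes were called by edgeR (0.103% higher and 0.314% lower), and 7 of the 49 had an unadjusted p under 0.05, 6 of them higher in D-gel@GSNP. The background itself rested on few libraries: 18 genes of all were higher and 55 lower, against 3 and 3 without D-gel@GSNP 1, 5 and 4 without D-gel@GSNP 2, 21 and 119 without D-gel@GSNP 3, and 69 and 213 in a fit of these 6 libraries alone. Without non-SP 1, 2 or 3 in turn, 3 to 5 were higher and 4 to 7 lower. Every 95% interval lay within -0.31 and 0.34 on the log2 scale, and 41 of the 49 estimates were above 0, with a median of 0.08 against 0.03 over all genes. That median was 0.05 without D-gel@GSNP 1, in the 6 libraries alone or with upper-quartile factors. In 22 genes the libraries of the groups did not overlap, 21 of them with D-gel@GSNP higher (20.4% of all genes did not overlap). The lowest estimate was that of Ccne2 (log2 -0.18 ± 0.06, adjusted p = 0.297), which was called in a fit of these 6 libraries alone (log2 -0.21, adjusted p = 0.0132). The highest was that of E2f8 (log2 0.18 ± 0.07). Against the same non-SP libraries, 48 genes fell in L-gel@GSNP, where 29.2% of all genes fell and 30.6% rose, with a median of -0.76 (with upper-quartile factors 6472 of all genes rose and 4106 fell, against 5361 and 5107). In D-gel@NP 43 fell, where 27% of all genes fell and 29.1% rose, with a median of -0.66 (with upper-quartile factors 6016 of all genes rose and 3859 fell, against 5098 and 4725), and 0 rose in either group.

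Other genes of the same processes were described from lists that share no gene with the 49. Of 36 further genes of origins and forks, 26 fell and 2 rose in PBS against non-SP, with a median of -0.47. There 26.1% of all genes fell and 27.6% rose. Ticrr, which helps to fire origins, fell by 2.35-fold (log2 -1.24 ± 0.07) and Pold2, a subunit of polymerase delta, by 1.97-fold (log2 -0.98 ± 0.07), whereas Pold4, its small subunit, rose by 1.72-fold (log2 0.78 ± 0.15) and Pole3 by 1.11-fold. Against PBS, 26 rose and 3 fell in D-gel@GSNP, where 27.4% of all genes rose and 27.5% fell. In L-gel@GSNP 5 rose and 16 fell (21.5% and 24.1% of all genes). In D-gel@NP 5 rose and 9 fell (14.2% and 16.3% of all genes), so the rises there were about as frequent as over all genes.

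Of 14 further genes of nucleotide supply, 11 fell and 0 rose in PBS against non-SP, and 11 rose and 1 fell in D-gel@GSNP against PBS. The first comparison had 26.1% of all genes lower and 27.6% higher, the second 27.4% higher and 27.5% lower. Cad, which starts pyrimidine synthesis, fell by 3.12-fold (log2 -1.64 ± 0.07, adjusted p = 5.36e-14), more than any of the 49 genes, and Samhd1, which breaks down deoxynucleotides, by 2.06-fold. Paics, an enzyme of purine synthesis, and the nucleoside carrier Slc29a1 had differences of 0.05 ± 0.05 and 0.14 ± 0.06 and were not called. All 10 further genes of chromatin copying fell in PBS, from 1.18-fold in Rbbp7 and 1.25-fold in Supt16 to 1.67-fold in Ssrp1 and 1.85-fold in Nasp, a histone chaperone, and all 10 rose in D-gel@GSNP against PBS.

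Of 18 further genes that control S phase, 14 fell and 2 rose in PBS, where 26.1% of all genes fell and 27.6% rose. E2f7, the closest relative of E2f8, fell by 2.75-fold (log2 -1.46 ± 0.09) and Mybl2, an activator of cell cycle genes, by 2.66-fold (log2 -1.41 ± 0.07). The 2 that rose were Rb1 (log2 0.59 ± 0.09) and Rbl2 (log2 0.27 ± 0.06), which encode pocket proteins that hold E2F in check. In D-gel@GSNP against PBS, E2f7 rose by 2.89-fold and Mybl2 by 2.91-fold, and Rb1 and Rbl2 fell (log2 -0.55 ± 0.09 and -0.23 ± 0.06).

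Of the CDK inhibitors, which restrain the kinases of the cell cycle, 2 rose and 1 fell of 6 tested in PBS against non-SP. There 27.6% of all genes rose and 26.1% fell, so these counts are not far from those shares. Cdkn1a was at 135, 141 and 131 CPM in D-gel@GSNP, 133, 132 and 131 in non-SP, 337, 346 and 340.1 in PBS, 353, 365 and 320.3 in D-gel@NP and 292, 285 and 329 in L-gel@GSNP, so that it was low in the groups where most of the 49 genes were high. Cdkn1a rose by 2.58-fold (log2 1.37 ± 0.06, adjusted p = 1.11e-14) and Cdkn2b by 1.79-fold, Cdkn2c fell (log2 -0.23 ± 0.07), and Cdkn1b, Cdkn2a and Cdkn2d had differences of 0.06 ± 0.06, 0.14 ± 0.13 and -0.07 ± 0.07. Against PBS, Cdkn1b rose in L-gel@GSNP (log2 0.60 ± 0.06) and in D-gel@NP (log2 0.48 ± 0.06), while Cdkn1a fell slightly in L-gel@GSNP (log2 -0.18 ± 0.05) and differed by 0.02 ± 0.05 in D-gel@NP.

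Of 20 genes of G2 and mitosis, all 20 fell in PBS against non-SP and 19 rose in D-gel@GSNP against PBS. Over all genes 26.1% fell in the first comparison and 27.4% rose in the second. The sum of the 20 genes was 4956 CPM in D-gel@GSNP, 5061 in non-SP, 3124 in PBS, 2651 in D-gel@NP and 2734 in L-gel@GSNP. Plk1 fell by 2.83-fold and Foxm1 by 2.32-fold, against 1.39-fold for Ttk and 1.30-fold for Cenpf. Between L-gel@GSNP and D-gel@NP, Cenpf alone of these 20 was called (log2 0.26 ± 0.08), where 8.33% of all genes were higher and 11.1% lower.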

How the data were processed

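RNA of 15 libraries was used, 3 in each of 5 groups. Per the submitters' processing notes, reads were trimmed with fastp 0.22.0, aligned with HISAT2 2.1.0 to GRCm39 and counted with featureCounts, and DESeq2 was used; strand, multi-mapping and annotation release are not given in the sources used here. The deposited count table holds the authors' raw whole-number counts per gene. The deposited FPKM values of the authors equal count over gene length and library total, and served only to compare levels between genes. Symbols came from GENCODE M21 (GRCm38): 32434 of 34259 identifiers matched and 1825 did not. Exon overlaps were read from that annotation.

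Counts were fitted in R 4.3.3 with edgeR 4.0.16 (filterByExpr by group, TMM factors, quasi-likelihood test, all 15 libraries in one model with a mean per group), and 10 comparisons were adjusted by Benjamini-Hochberg over 17497 genes. The biological coefficient of variation was 8.06%, and 95% intervals rest on the standard error of the fit. The steps were run on simulated counts in which few genes were changed, in PBS only and in equal numbers up and down. Far more genes were called in the real data, so that run does not test the scaling used here. Values per library are given, by rule, for the 2 genes of each role with the highest FPKM and those with the largest and smallest PBS difference, and further genes were chosen after their values were seen; the context genes named are the 2 highest and 2 lowest of each list in PBS against non-SP, and all CDK inhibitors. The genes and lists were chosen with earlier results of these data known. Of 134 context genes 131 were in the table. Alternatives were other scaling factors, other filters, DESeq2 1.42.0, a replicate block, only the 6 libraries compared, and leaving out each library; thinning all libraries to 16.6 M was chosen after seeing the data. All samples were used, and promoter sequences were read from RefSeq (GRCm38.p6).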

Additional observations from a re-analysis of the deposited data

How the results depend on the processing

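Counts of called genes among the 49 kept their direction and stayed within 1.5 times of the reported count in 8 of the 10 comparisons under every alternative run. The exceptions were L-gel@GSNP against D-gel@NP, with 20 called and 8 in a fit of only the 6 libraries compared, and D-gel@GSNP against non-SP, with 0 called and 1 (Ccne2) in such a fit. Leaving out 1 library gave 9 to 20 in L-gel@GSNP against D-gel@NP, 30 to 35 in L-gel@GSNP against PBS (36 reported), 20 to 22 in D-gel@NP against PBS, 45 to 48 in D-gel@GSNP against L-gel@GSNP and 0 in D-gel@GSNP against non-SP. For single genes, 6616 of 6860 values stayed on their side of the threshold, 200 were no longer called, 43 became called and 1 reversed: Rfc1 in D-gel@GSNP against L-gel@GSNP was -0.010 with upper-quartile factors (0.14 reported); the cause was not tested.

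Upper-quartile factors shifted the median of all genes by -0.14 in D-gel@GSNP against L-gel@GSNP (4180 genes higher and 6778 lower, against 5339 and 5475), by -0.12 in D-gel@GSNP against D-gel@NP (3961 and 6303, against 5031 and 5183) and by 0.12 in L-gel@GSNP against non-SP (6472 and 4106, against 5361 and 5107). In D-gel@NP against non-SP the shift was 0.09 (6016 and 3859, against 5098 and 4725) and against PBS 0.04 (2974 and 2221, against 2479 and 2848). In L-gel@GSNP against PBS they gave 4560 higher and 3421 lower (3761 and 4218 reported), and 29 called of the 49. The shift with these factors was -0.08 in D-gel@GSNP against PBS (4066 and 5561, against 4802 and 4819). In PBS against non-SP it was 0.05 (5343 and 4016, against 4824 and 4564). Thinning to the shallowest library gave 29 in L-gel@GSNP against PBS and 15 in L-gel@GSNP against D-gel@NP.

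Replicate numbers did not pair the libraries: none of 30 same-numbered pairs had a correlation of deviations over 0.1 (-0.036 to 0.045), and 10 correlated best with their own number. With the replicate block the counts were 41 in PBS against non-SP, 22, 43 and 35 in D-gel@NP, D-gel@GSNP and L-gel@GSNP against PBS, 48 in D-gel@GSNP against L-gel@GSNP, 45 and 19 in D-gel@GSNP and L-gel@GSNP against D-gel@NP, and 44, 0 and 48 in D-gel@NP, D-gel@GSNP and L-gel@GSNP against non-SP.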
